A study of Homo sapiens with 8 samples.

Results

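The genes described here are the clustered histone genes, taken as every gene in the expression tables of 2 lymphoma cell lines whose symbol starts with HIST1H, HIST2H, HIST3H or HIST4H. Among the 13701 genes listed for HT, 63 met this rule, and among the 13036 listed for SUDHL6, 61 did. In all there were 65 different genes, of which 59 stood in both tables. In HT they comprised 4 H1, 15 H2A, 18 H2B, 13 H3 and 13 H4 genes, and in SUDHL6 3, 16, 18, 12 and 12. On the hg19 coordinates of the tables, the HIST1 genes lie on chromosome 6, the HIST2 and HIST3 genes on chromosome 1, and HIST4H4 on chromosome 12.

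HT and SUDHL6 are cell lines of diffuse large B cell lymphoma. Each was treated for 96 hours with iEZH, named in the title of the series as an inhibitor of PRC2, the complex that methylates lysine 27 of histone H3, or with DMSO as the control. The labels name total RNA as the material of 2 libraries in each of the 4 groups (HT with DMSO, HT with iEZH, SUDHL6 with DMSO, SUDHL6 with iEZH), 8 libraries in all. How RNA was selected for sequencing is not given in the sources used here. Library numbers 1 and 2 are the replicate numbers of the labels, which do not say whether they mark separate cultures, so p-values measure only the spread between these samples, which may be technical.

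Histones are the proteins around which DNA is wound. H2A, H2B, H3 and H4 form the core of the nucleosome, and H1, the linker histone, binds the DNA where it enters and leaves. Most clustered histone genes are copied mainly during S phase, and their mRNAs end in a conserved stem-loop instead of a poly(A) tail. SLBP binds that stem-loop, NPAT and CASP8AP2 (FLASH) act in the transcription and 3′ end processing of these genes, and some of them also give longer, polyadenylated mRNAs. Genes of replication-independent variants such as H2AFZ (H2A.Z) and H3F3B (H3.3) lie outside the clusters and give polyadenylated mRNAs throughout the cell cycle.

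The stem-loop is shown because it sets these mRNAs apart from most others and because its spelling differs between histone types. GENCODE v29 transcripts of all 65 genes were searched, on the sense strand, for a stretch that starts with GG, has TT after 4 further bases and ends with CC after 6 more, and whose outer 6 bases on each side can pair, and 30 of the 65 genes (46.2%) held it, against 1.25% of 57133 gene names. The search saw only annotated transcripts and this pattern. A gene without a match, as all H1 genes were, may still have a stem-loop beyond its annotated end or in another form. The 30 genes used 5 spellings. These 5 occurred in 37 gene names of the whole annotation, 34 of which were HIST1 to HIST4 genes. One site of each spelling is given 5′ to 3′ on the strand of the gene, with the stem-loop in capitals; positions are on GRCh38.
HIST1H2AC (chr6:26124664-26124689, plus strand): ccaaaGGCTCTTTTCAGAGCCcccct
HIST1H2BD (chr6:26158582-26158607, plus strand): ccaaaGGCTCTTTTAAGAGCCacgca
HIST1H4H (chr6:26285126-26285151, minus strand): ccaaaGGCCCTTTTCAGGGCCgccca
HIST2H4B (chr1:149860764-149860789, minus strand): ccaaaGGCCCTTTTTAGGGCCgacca
HIST2H2BC (chr1:149850297-149850322, minus strand): ccaaaGGCTCTTTTCAGGGCCattta
The HIST1H2AC spelling was the commonest, in 16 genes (6 H2A, 8 H2B and 2 H3). The HIST1H2BD spelling was found in 5 genes (3 H2B and 2 H3) and the HIST2H2BC spelling in 2. Both spellings whose stem opens with GGCCC were found in H4 genes, the HIST1H4H one in 5 and the HIST2H4B one in 2. In 20 of the 30 genes at least 1 annotated transcript ran on for 200 bases or more beyond the stem-loop.

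Promoters are shown for an H2A, an H2B and an H4 gene described below, whose matches to the motifs searched differ. RefSeq promoter sequences (GRCh38.p14) were matched for 53 of the 65 genes and cover 250 bases before to 50 after the start. They were searched on both strands for the octamer ATTTGCAT, for TATAAA and for CCAAT, where the reverse of TATAAA can overlap TATAAA itself. The 250 bases before the start are given 5′ to 3′ on the strand of the gene, with matches in capitals.
HIST1H2AC (chr6:26123922-26124171, plus strand): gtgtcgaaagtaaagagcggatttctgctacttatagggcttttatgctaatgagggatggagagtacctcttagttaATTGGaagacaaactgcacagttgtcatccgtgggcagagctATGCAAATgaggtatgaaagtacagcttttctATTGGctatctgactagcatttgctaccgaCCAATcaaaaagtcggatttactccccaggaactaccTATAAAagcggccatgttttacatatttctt
HIST1H2BK (chr6:27146859-27147108, minus strand): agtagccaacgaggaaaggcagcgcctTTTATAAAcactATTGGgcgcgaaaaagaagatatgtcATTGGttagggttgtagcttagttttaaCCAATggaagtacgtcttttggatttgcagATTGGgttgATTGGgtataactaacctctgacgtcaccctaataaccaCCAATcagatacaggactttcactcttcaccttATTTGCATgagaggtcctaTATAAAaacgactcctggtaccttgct
HIST1H4H (chr6:26285535-26285784, minus strand): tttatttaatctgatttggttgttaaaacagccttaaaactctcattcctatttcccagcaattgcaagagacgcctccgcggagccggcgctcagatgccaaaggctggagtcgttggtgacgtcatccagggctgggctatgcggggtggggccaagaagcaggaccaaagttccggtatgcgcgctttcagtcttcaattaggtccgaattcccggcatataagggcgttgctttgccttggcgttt
The octamer was found in 10 of 15 H2A and 8 of 12 H2B promoters, in 1 of 11 H3 and in 0 of 4 H1 and 0 of 11 H4 promoters, against 1.80% of 27305 promoters searched in all. All H1, H2A, H2B and H3 promoters matched held CCAAT, against 3 of 11 H4 promoters and 35.7% of all promoters. TATAAA was found in 2 of 4 H1, 11 of 15 H2A, 8 of 12 H2B, 8 of 11 H3 and 6 of 11 H4 promoters, against 11.95% of all.

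Expression is given as FPKM, the authors' fragments per kilobase of gene, scaled to the depth of each library. The libraries held 59563321 to 94821806 reads, and between 20.96% and 44.4% of a library's summed FPKM lay in genes that span under 300 bp. No histone gene is that short; their median span was 463 bp in HT and 467 bp in SUDHL6. Among B cell markers, MS4A1, CD79A, CD79B, PAX5, CD22, BCL6, MME and POU2AF1 were present in every library, at 35.2 to 867 FPKM in HT and 32.5 to 1605 FPKM in SUDHL6. CD79A, part of the B cell receptor, ranged from 715 to 867 FPKM in HT and from 798 to 1156 in SUDHL6. Of 8 T and NK cell markers, 5 were listed in HT, summing to 0.960 to 2.94 FPKM, and 0 in SUDHL6. Of 7 myeloid markers, 3 were listed in HT at a sum of 0.542 to 1.51 FPKM and 1 in SUDHL6 at 0.115 to 0.273, and of 8 epithelial and stromal markers only DCN was listed, in HT at 1.71 to 2.41 FPKM.

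HT library DMSO 1 stood apart from the other 3 HT libraries in its histone genes. Their summed FPKM was 601 in DMSO 1 and 89.1 in DMSO 2, and 118 in iEZH 1 and 79.9 in iEZH 2. DMSO 1 held the highest value of the 4 libraries for 58 of the 63 genes, and the median ratio of DMSO 1 to DMSO 2 over the genes was 10.5. In DMSO 1, 60 of the 63 genes reached 1 FPKM, against 22 in DMSO 2, 29 in iEZH 1 and 17 in iEZH 2. Of the 13333 HT genes spanning 300 bp or more, 47 were at least 2 log2 units higher in DMSO 1 than in DMSO 2, and 41 of the 47 were clustered histone genes. The other 6 were ANKRD30BL, LOC284801, RPL13AP5, RPPH1, SCARNA2 and TERC, and 0 genes were lower by that much. The main HT differences below are therefore given with and without DMSO 1.

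Among those 6, RPPH1 (the RNA of ribonuclease P), SCARNA2 (a small Cajal body RNA) and TERC (the telomerase RNA) are RNAs without a poly(A) tail, and a list of such RNAs was set beside the histone genes after the values were seen. RPPH1 stood at 136 FPKM in HT DMSO 1, 7.48 in DMSO 2, 12.2 in iEZH 1 and 1.57 in iEZH 2. RMRP, the RNA of a related ribonuclease, spans 269 bp and stood at 755, 22.2, 51.9 and 4.96 FPKM in the same order. Both were highest in DMSO 1 and lowest in iEZH 2, like the histone sum. In SUDHL6, RPPH1 stood at 40.7 and 0.886 FPKM with DMSO and at 52.2 and 3.73 with iEZH, so that the 2 libraries numbered 1 were high and the 2 numbered 2 were low. The 9 listed RNAs of this kind summed to 973, 63.1, 102 and 27.3 FPKM in HT (DMSO 1, DMSO 2, iEZH 1, iEZH 2) and to 211, 16.5, 276 and 46.7 in SUDHL6. RMRP and RPPH1 made up most of the sum in HT DMSO 1. In HT, SCARNA17 (3.09, 1.64, 3.42 and 2.43 FPKM) and SCARNA9L (1.13, 1.39, 1.39 and 0.189) were not highest in DMSO 1, while the rest of the list was. The part of these RNAs in the histone values was not tested. Of the 9 tested in HT 8 were lower with iEZH (median difference -1.27 log2), or 6 of 9 without DMSO 1 (-0.38). Of the 8 tested in SUDHL6 all 8 were higher (0.75). SCARNA10 is among these 8 and entered the test through iEZH alone, so the filter described below bears on this count. It stood at 0.999 and 0.0712 FPKM with DMSO and at 1.815 and 1.869 with iEZH. For this list limma called 0 in either line, with or without genes under 300 bp. H3F3B, whose mRNA is polyadenylated, stood at 170 and 157 FPKM in HT with DMSO and at 179 and 152 with iEZH. The histone sum in SUDHL6 was 178 and 121 FPKM with DMSO and 218 and 235 with iEZH. Why HT DMSO 1 stood apart was not tested.

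**Figure D1:**
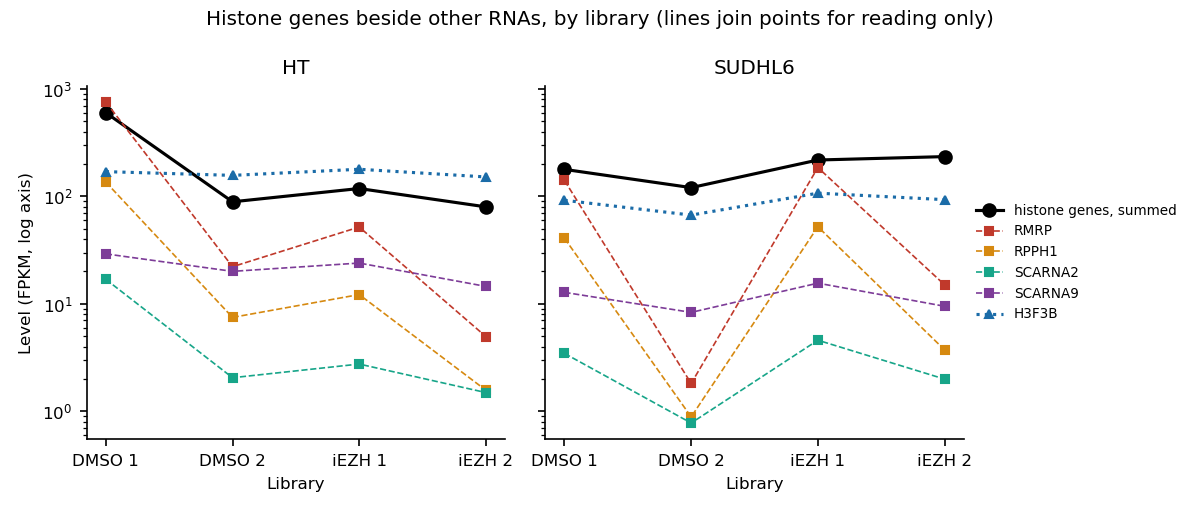
Level (FPKM, log axis) in each library of HT (left) and SUDHL6 (right) of the summed histone genes (black), of 4 RNAs without a poly(A) tail (RMRP, RPPH1, SCARNA2, SCARNA9) and of H3F3B; lines only join the points of a series. In HT the histone sum is 601 in DMSO 1 and 79.9 to 118 in the other libraries, and H3F3B lies between 152 and 179.

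By histone type, the gap between the 2 HT control libraries was widest for H3 and narrowest for H2B. The H3 genes summed to 93.5 and 6.60 FPKM in DMSO 1 and DMSO 2, a ratio of 14.2, and to 7.30 and 4.21 FPKM with iEZH. The H4 genes summed to 141 and 11.8 FPKM with DMSO and to 18.0 and 6.22 with iEZH. The H1 genes stood at 55.2 and 5.69 FPKM with DMSO and at 13.4 and 6.53 with iEZH. For H2A the sums were 156 and 18.2 FPKM with DMSO and 24.2 and 17.2 with iEZH. The H2B genes summed to 156 and 46.8 FPKM with DMSO, a ratio of 3.33, and to 55.5 and 45.8 with iEZH. For every type, DMSO 1 was the highest library and the other 3 lay close together by comparison.

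In SUDHL6 the sums of H1, H2A, H2B and H4 were higher in both iEZH libraries than in both DMSO libraries, and those of H3 overlapped. All types together summed to 178 and 121 FPKM with DMSO and to 218 and 235 with iEZH. The H1 genes stood at 24.1 and 15.2 FPKM with DMSO and at 30.5 and 32.5 with iEZH. The H2A genes summed to 38.1 and 26.5 with DMSO and to 49.0 and 59.1 with iEZH, and the H2B genes to 61.7 and 57.0 with DMSO and to 76.2 and 89.8 with iEZH. The H3 genes stood at 18.3 and 9.14 FPKM with DMSO and at 18.3 and 15.8 with iEZH, so that DMSO 1 and iEZH 1 were level. For H4 the sums were 36.2 and 12.9 FPKM with DMSO and 44.0 and 37.3 with iEZH; DMSO 2 was the lowest library for every type. A few genes carried the gap in H1 and H2B. Sums without leading genes were made for these types only, and how far single genes carried the H2A and H4 gaps was not examined. Without HIST1H2BK and HIST1H2BD the H2B sums were 43.2 and 38.1 FPKM with DMSO and 43.4 and 41.1 with iEZH, and without HIST1H1C the H1 sums were 6.71 and 0.847 with DMSO and 5.47 and 1.35 with iEZH, so that both overlapped. The levels of the 2 lines come from separate tables and are set side by side only.

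**Figure D2:**
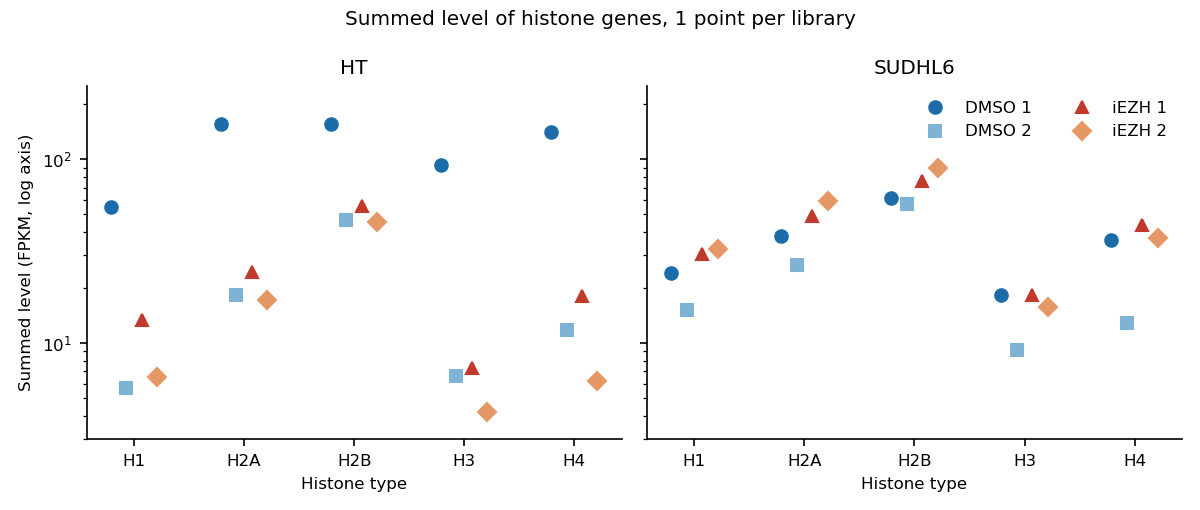
Summed FPKM (log axis) of the histone genes of each type in HT (left) and SUDHL6 (right), 1 point per library. In HT, DMSO 1 stands above the other 3 libraries for all 5 types; in SUDHL6, DMSO 2 is lowest for all 5 types.

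HIST1H2BK, an H2B gene, had a mean of 20.8 FPKM in HT with DMSO and 13.2 FPKM in SUDHL6. It held 4.18% of the histone sum in HT DMSO 1, 18.4% in DMSO 2, 21.1% in iEZH 1 and 31.9% in iEZH 2. In SUDHL6 its share was 6.96% and 11.6% with DMSO and 10.4% and 14.4% with iEZH. The next highest mean control levels were those of HIST1H2BD (15.8 FPKM) and HIST1H1C (11.5) in HT, and in SUDHL6 HIST1H1C led with 15.8 FPKM ahead of HIST1H2BK. On hg19, HIST1H2BK spans chr6:27106071-27114637, HIST1H2BD chr6:26158348-26171576, HIST1H1C chr6:26055967-26056699 and HIST1H2AC chr6:26124372-26124918. HIST1H4H lies at chr6:26285353-26285727, HIST1H3B at chr6:26031816-26032288, HIST1H3H at chr6:27777841-27778314, HIST1H2AI at chr6:27775976-27776445 and HIST1H2BO at chr6:27861202-27861669. HIST2H2AA3 lies at chr1:149813784-149814318 and HIST2H2BC at chr1:149821758-149822340. At the other end, 12 HT and 10 SUDHL6 genes had at least 1 library at the value that the tables repeat as their lower limit, 0.0613 FPKM in HT and 0.0712 in SUDHL6.

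**Figure D3:**
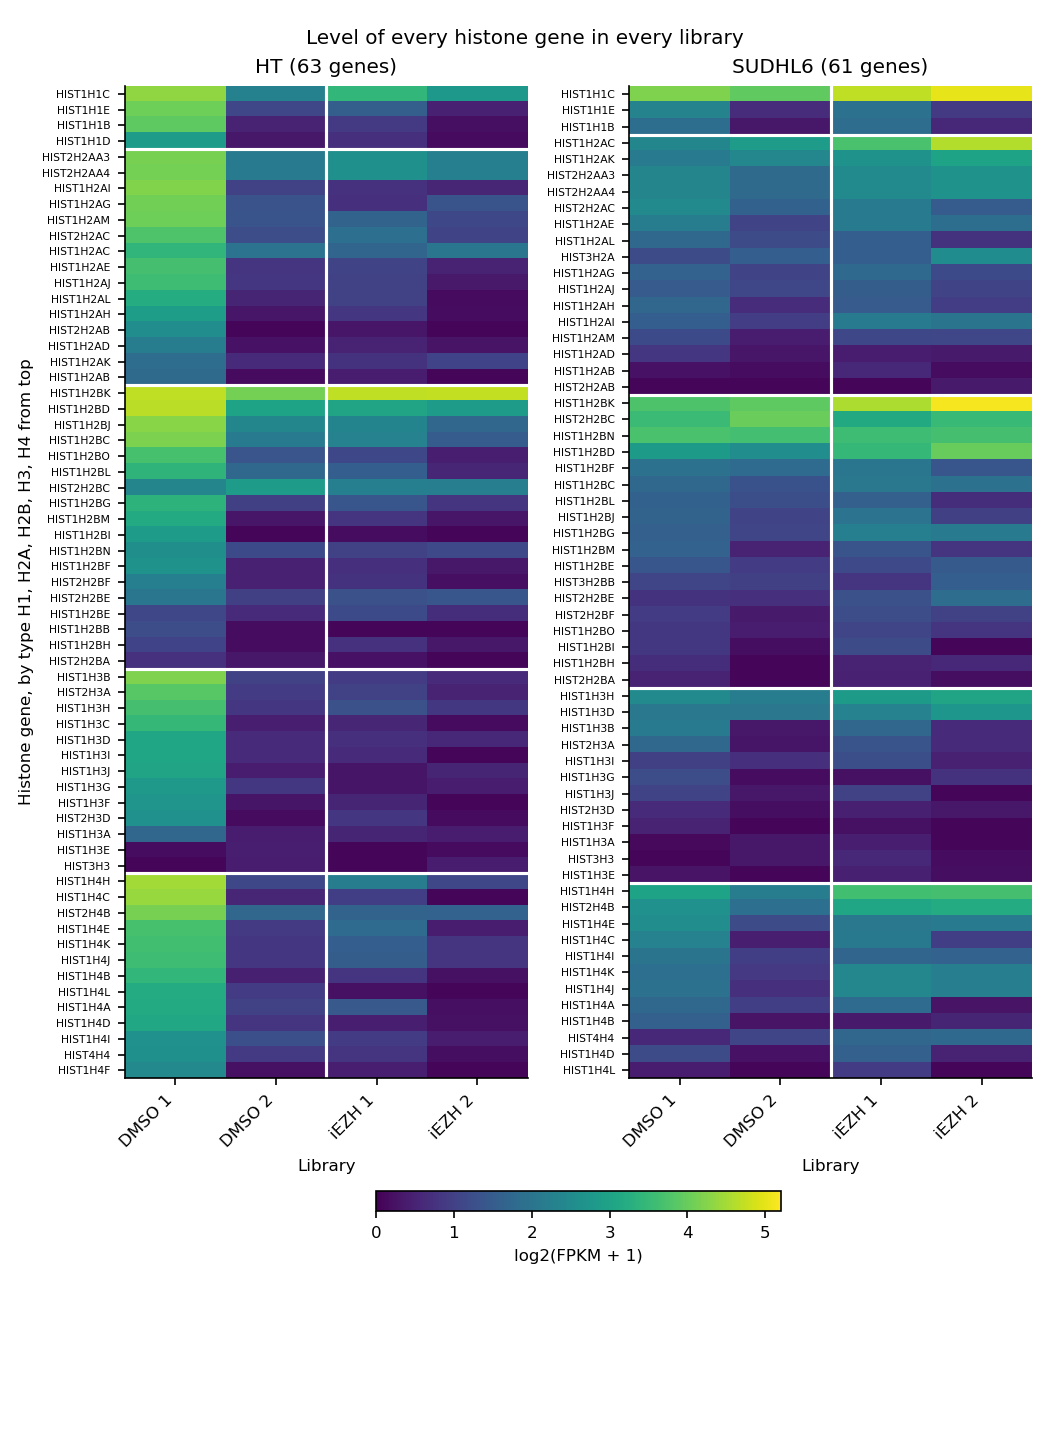
Level, log2(FPKM + 1), of each histone gene (rows, grouped by type from H1 at the top to H4 and ordered by mean DMSO level) in each library (columns) of HT (63 genes) and SUDHL6 (61 genes). The HT DMSO 1 column is brighter than the other 3 in nearly every row, with HIST1H2BK and HIST2H2BC among the exceptions.

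For HT, the comparison of iEZH with DMSO was tested with limma on log2(FPKM + 1), in genes for which 2 or more of the 4 libraries reached 1 FPKM. Of the 63 histone genes 34 passed this filter; of the 29 others, 26 reached 1 FPKM in DMSO 1 alone and 3 (HIST1H3E, HIST2H2BA and HIST3H3) in no library. The 26 were HIST1H1B, HIST1H1D, HIST1H2AB, HIST1H2AD, HIST1H2AH, HIST2H2AB, HIST1H2BB, HIST1H2BF, HIST1H2BH, HIST1H2BI, HIST1H2BM, HIST2H2BF, HIST1H3A, HIST1H3C, HIST1H3D, HIST1H3F, HIST1H3G, HIST1H3I, HIST1H3J, HIST2H3D, HIST1H4B, HIST1H4C, HIST1H4D, HIST1H4F, HIST1H4L and HIST4H4. At an adjusted p of 0.05 (limma, Benjamini-Hochberg) 0 histone genes were called, where 0.609% of all 11321 genes tested were called. One gene, HIST1H4I, had an unadjusted p under 0.05 (2.94% of the 34, against 21.4% of all genes tested), and 0 histone genes had an FDR under 0.05 in the authors' deposited table. With genes under 300 bp left out of the fit, again 0 histone genes were called, with 5.51% of all genes called and a smallest adjusted p of 0.126 (limma).

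The 34 tested HT genes had a median difference of -1.17 log2, iEZH minus DMSO, and 32 of them were lower with iEZH. The median of all genes tested was 0.02. The filter was set on all 4 libraries and was kept where a library is left out. Some of the 34, such as HIST1H4J and HIST1H4K, reached 1 FPKM only in DMSO 1 and 1 iEZH library, and others, such as HIST1H4I, only with DMSO. The filter therefore bears on the medians and counts without DMSO 1, here and below. Without DMSO 1 the median was -0.04 log2, with 18 genes lower and 16 higher, and 0 were called. Without DMSO 2, so that DMSO 1 was the lone control and was assumed to vary like the iEZH libraries, the median was -2.34 log2 and limma called 28 of the 34 genes lower, against 0.512% of all genes. With short genes also left out, 30 were called lower without DMSO 2 (1.12% of all genes) and 2 without iEZH 1 (2.66% of all genes). The direction in HT depended on which control library was used: 60 of the 63 genes were below DMSO 1 in both iEZH libraries, while against DMSO 2 both iEZH libraries were below it for 16 genes, above it for 13 and on either side or level for the rest. Both iEZH libraries lay below both DMSO libraries for 9 of the 34 tested genes (26.5%), near the 23.4% of all genes tested, and above both for 0, against 28.5%. The 9 include HIST1H2AI, HIST1H3B and HIST1H4I, which reached 1 FPKM with DMSO only. The filter therefore bears on this count and on the differences given for these genes, also between the lines. In bulk RNA, fewer cells that express a gene and less RNA per cell cannot be told apart.

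Among HT H1 genes, HIST1H1C stood at 19.2 FPKM in DMSO 1 and 3.88 in DMSO 2, and at 9.89 and 5.86 with iEZH, so the iEZH libraries lay between the controls (difference -0.20 log2, SE 0.68, limma adjusted p = 0.898). Without DMSO 1 its difference was 0.83 log2 (adjusted p = 0.342). HIST1H1E, also a linker histone gene, had 15.7 FPKM in DMSO 1 and 1.14 in DMSO 2, and 1.97 and 0.391 with iEZH. HIST1H1B and HIST1H1D reached 1 FPKM only in DMSO 1, at 14.1 and 6.33 FPKM.

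The HT H2A gene with the highest control mean was HIST2H2AA3, at 16.5 and 3.33 FPKM with DMSO and 5.10 and 3.72 with iEZH (-0.70 log2, SE 0.65, limma adjusted p = 0.595; 0.31 without DMSO 1). HIST2H2AA3 and HIST2H2AA4 are near-identical copies, their values were equal in 3 of 4 HT and 4 of 4 SUDHL6 libraries, and they cannot be told apart here. HIST1H2AI had the most negative difference among genes whose groups did not overlap, with 17.6 and 1.02 FPKM with DMSO and 0.682 and 0.465 with iEZH (-1.96 log2, SE 1.01, adjusted p = 0.345). Its difference was -0.36 log2 without DMSO 1 (adjusted p = 0.550) and -3.56 without DMSO 2 (adjusted p = 5.73e-05). All 11 tested H2A genes were lower with iEZH (median -1.30 log2), and their median was 0.04 without DMSO 1.

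The HT H2B genes were the most mixed. HIST1H2BK stood at 25.1 and 16.4 FPKM with DMSO and at 24.9 and 25.5 with iEZH (0.30 log2, SE 0.21, limma adjusted p = 0.490; 0.59 without DMSO 1), with only DMSO 2 lower. HIST1H2BO stood at 11.9 and 1.58 FPKM with DMSO and at 1.19 and 0.349 with iEZH (-1.75 log2, SE 0.77, adjusted p = 0.277; -0.59 without DMSO 1). HIST2H2BC, annotated as a pseudogene, went against the rest in that DMSO 2 was its highest library, at 6.19 FPKM against 4.16 in DMSO 1 and 3.72 and 3.69 with iEZH. Over the 11 tested H2B genes the differences ran from -1.75 to 0.30 log2, with 9 below 0 (median -0.90, and -0.09 without DMSO 1).

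Of 13 HT H3 genes only 3 were tested. HIST1H3B, which encodes the replication-dependent H3.1, stood at 17.2 and 1.00 FPKM with DMSO and at 0.900 and 0.564 with iEZH (-1.81 log2, SE 1.00, limma adjusted p = 0.377), and its difference was -0.22 without DMSO 1. The H4 genes are many copies that encode the same protein. HIST1H4H stood at 21.2 and 1.20 FPKM with DMSO and at 3.59 and 1.16 with iEZH (-1.15 log2, SE 1.10, adjusted p = 0.606; 0.52 without DMSO 1), so its groups overlapped. HIST1H4I stood at 5.17 and 1.4 FPKM with DMSO and at 0.874 and 0.337 with iEZH (-1.28 log2, SE 0.47, adjusted p = 0.206; -0.60 without DMSO 1), below both controls. The 7 tested H4 genes lay between -1.28 and -1.04 log2 with a median of -1.17, which was 0.23 without DMSO 1.

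**Figure D4:**
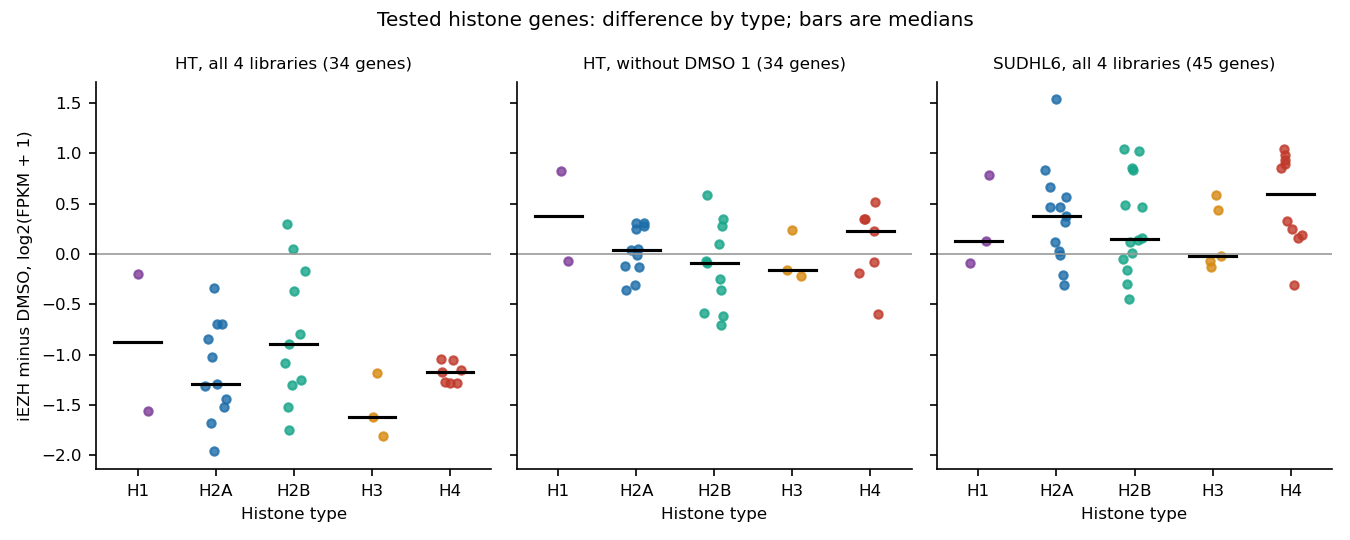
Difference of each tested histone gene (iEZH minus DMSO, log2(FPKM + 1)) by type, for HT with all 4 libraries and without DMSO 1 (34 genes each) and for SUDHL6 (45 genes); black bars are medians. The HT medians lie between -1.62 and -0.88 with all libraries and between -0.16 and 0.38 without DMSO 1.

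For SUDHL6, 45 of the 61 histone genes passed the filter; of the 16 others, 5 reached 1 FPKM in a single library and 11 in none (HIST1H2AB, HIST1H2AD, HIST2H2AB, HIST1H2BH, HIST1H2BI, HIST1H2BO, HIST2H2BA, HIST1H3A, HIST1H3E, HIST1H3F, HIST1H3G, HIST1H3I, HIST2H3D, HIST3H3, HIST1H4B and HIST1H4L together). Among the 45, 2 (HIST2H2BE and HIST2H2BF) reached 1 FPKM with iEZH only. No histone gene was called (limma, adjusted p of 0.05; smallest adjusted p 0.133), where 0.269% of all 11173 genes tested were called. An unadjusted p under 0.05 was found for 12 of the 45 (26.7%, against 18.8% of all genes tested), all 12 with a positive difference, and 0 had an FDR under 0.05 in the authors' deposited table. With genes under 300 bp left out the smallest adjusted p was 0.0942 and 0 were called, with 0.0182% of all genes called. With short genes and 1 library left out, histone genes were called higher in each case: 10 without DMSO 1 (1.94% of all genes), 3 without DMSO 2 (1.54%), 10 without iEZH 1 (3.38%), where 1 was also called lower, and 7 without iEZH 2 (1.68%).

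The 45 tested SUDHL6 genes had a median difference of 0.32 log2, and 33 were higher with iEZH; the median of all genes was 0.04. For 20 of the 45 (44.4%) both iEZH values exceeded both DMSO values, against 28.9% of all genes tested, and for 1 (2.22%) both were below, against 20.6%. The filter bears on the count of 20, which includes HIST2H2BE and HIST2H2BF, genes that passed it through iEZH alone. DMSO 2 also weighed on this count: 43 of the 61 genes were above DMSO 2 in both iEZH libraries, and 21 above DMSO 1. The median was -0.08 log2 without DMSO 2 (21 higher, 24 lower) and 0.70 without DMSO 1. It was also 0.01 after quantile normalization (23 higher, 22 lower), 0.53 with a pseudocount of 0.1, 0.16 with no filter on low values and 0.82 over the 10 genes left by a filter of 5 FPKM.

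Among SUDHL6 H1 genes, HIST1H1C stood at 17.3 and 14.3 FPKM with DMSO and at 25.0 and 31.2 with iEZH, higher in both iEZH libraries (0.79 log2, SE 0.17, limma adjusted p = 0.133). HIST1H1B and HIST1H1E differed by 0.13 and -0.09 log2 with overlapping groups.

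HIST1H2AC, an H2A gene, had the most positive difference of the histone genes in SUDHL6. It stood at 4.22 and 6.28 FPKM with DMSO and at 12.2 and 23.4 with iEZH (1.54 log2, SE 0.35, limma adjusted p = 0.1404), and both iEZH libraries were well above both controls. Without DMSO 1 the difference was 1.30 log2 and without DMSO 2 it was 1.78. The 13 tested H2A genes ran from -0.31 to 1.54 log2 (median 0.38), with 10 above 0. For 6 of the 13 both iEZH libraries lay above both controls, against 28.9% of all genes tested.

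In the H2B genes of SUDHL6, HIST1H2BK stood at 12.4 and 13.98 FPKM with DMSO and at 22.7 and 33.8 with iEZH (1.02 log2, SE 0.21, limma adjusted p = 0.133). HIST1H2BD stood at 6.11 and 4.89 FPKM with DMSO and at 10.1 and 14.9 with iEZH (1.04 log2, SE 0.22, adjusted p = 0.133), again without overlap. HIST1H2BN was level at 12.2 and 11.5 FPKM with DMSO and 10.98 and 11.7 with iEZH. HIST2H2BC was the 1 gene with both iEZH libraries below both controls, at 10.6 and 15.1 FPKM with DMSO and 7.92 and 10.3 with iEZH (-0.45 log2, SE 0.22, adjusted p = 0.365). Over the 14 tested H2B genes the median was 0.15 log2.

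Among H3 genes, HIST1H3H stood at 4.61 and 3.63 FPKM with DMSO and at 6.15 and 7.18 with iEZH (0.59 log2, SE 0.15, limma adjusted p = 0.156), while HIST1H3B overlapped, at 3.42 and 0.260 with DMSO and 2.29 and 0.544 with iEZH. The 5 tested H3 genes had a median of -0.02 log2. HIST1H4H stood at 7.07 and 3.58 FPKM with DMSO and at 11.3 and 11.8 with iEZH (1.04 log2, SE 0.29, adjusted p = 0.176), higher in both iEZH libraries. Of the 10 tested H4 genes 9 were above 0 (median 0.59 log2, and 0.11 without DMSO 2). For 5 of the 10 both iEZH libraries lay above both controls, against 28.9% of all genes tested.

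The genes were also set apart by the length of their span. Spans of 1000 bp or more in the authors' tables, which leave room for longer transcripts, were held by 6 genes (HIST1H2BD, HIST1H2BK, HIST1H3D, HIST2H2BA, HIST2H2BE and HIST2H2BF). In SUDHL6 5 of them were tested, with a median difference of 0.84 log2, against 0.17 log2 for the shorter genes. All 5 had both iEZH libraries above both controls, against 15 of 40 shorter genes and 28.9% of all genes tested. The filter bears on this count, since 2 of the 5 (HIST2H2BE and HIST2H2BF) passed it through iEZH alone and the sixth gene, HIST2H2BA, did not pass. In HT 3 were tested, with a median of -0.17 log2 against -1.26 for the shorter genes, and 0.35 against -0.07 without DMSO 1. The median DMSO 1 to DMSO 2 ratio of the 3 was 3.15, against 9.33 for the 31 shorter genes tested. Genes with a GENCODE transcript running 200 bases or more past the stem-loop had medians of -1.15 log2 in HT and 0.36 in SUDHL6. All other tested genes had medians of -1.27 and 0.32. Without DMSO 1 the HT medians were -0.08 and -0.01. The others include every gene in which no stem-loop was found, HIST1H2BK among them, and also HIST1H2BD. They are therefore not a set of genes known to lack longer transcripts. These are descriptions of small groups of genes, and no test was made between them. By cluster, the medians were -1.26 log2 (27 tested HIST1 genes) and -0.70 (7 HIST2 genes) in HT, which were -0.07 and 0.25 without DMSO 1, and 0.22 (34) and 0.47 (8) in SUDHL6.

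Compared by library number, the HT genes differed more between the libraries numbered 1 than between those numbered 2. Between DMSO 1 and iEZH 1, 61 of 63 HT genes were lower with iEZH and 1 higher (median -2.002 log2), while between DMSO 2 and iEZH 2, 44 were lower and 17 higher (median -0.17 log2). In SUDHL6, 34 of 61 genes were higher and 26 lower between the libraries numbered 1 (median 0.11 log2), and 46 were higher and 13 lower between those numbered 2 (median 0.35 log2). Within a treatment, library 1 was the higher one for 60 (DMSO) and 52 (iEZH) of the 63 HT genes and for 52 and 38 of the 61 SUDHL6 genes.

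**Figure D5:**
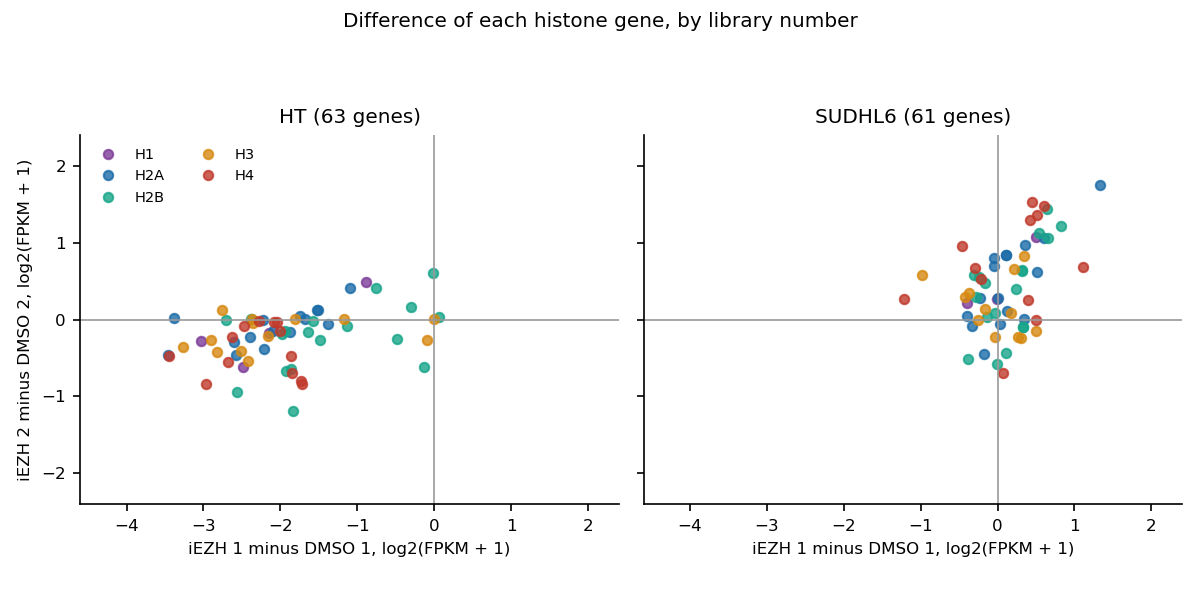
Difference of each histone gene, iEZH minus DMSO in log2(FPKM + 1), between the libraries numbered 1 (horizontal axis) and those numbered 2 (vertical axis), coloured by histone type. HT genes spread to the left along the horizontal axis (median -2.002) and stay near 0 on the vertical one (median -0.17); SUDHL6 genes lie mostly above 0 on the vertical axis (median 0.35).

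The difference between lines, SUDHL6 minus HT in the iEZH effect, was tested as an interaction over 10427 genes, 33 of them histone genes. No histone gene was called (limma, smallest adjusted p 0.291; 2 with an unadjusted p under 0.05), where 0.105% of all genes tested were called; the authors' table holds no such comparison. The median over the 33 was 1.47 log2 with 32 above 0, and it was 0.35 without HT DMSO 1 and 2.76 without HT DMSO 2. The smallest p-values belonged to HIST1H2AC (2.39 log2, SE 0.69, adjusted p = 0.291), HIST1H2BD (1.93, SE 0.68, adjusted p = 0.369) and HIST1H2AI (2.80, SE 1.24, adjusted p = 0.487). Without HT DMSO 1 these were 1.66, 1.11 and 1.20 log2 (adjusted p = 0.498, 0.480 and 0.480). Without HT DMSO 2, HIST1H2AI alone was called (4.40 log2, adjusted p = 0.0398), with 0.0288% of all genes called higher.

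The listed histone variant genes outside the clusters, H2AFX and CENPA among them, had DMSO 1 to DMSO 2 ratios of 0.884 to 1.24 in HT. In SUDHL6 the ratios were 0.721 to 2.55, and H3F3A had the highest. When in the cell cycle each of these genes is expressed, and how its mRNA ends, was not examined here. Of 12 on the list 10 were tested in each line and 0 were called, beside 0.609% of all genes tested in HT and 0.269% in SUDHL6. With iEZH 8 were lower in HT (median -0.11 log2, and -0.12 without DMSO 1) and 6 in SUDHL6 (-0.09). H2AFZ stood at 1003 and 808 FPKM in HT with DMSO and at 578 and 520 with iEZH, below both controls (-0.72 log2, SE 0.18, limma adjusted p = 0.111), and in SUDHL6 at 378 and 230 with DMSO and 275 and 209 with iEZH. H3F3A stood at 20.2 and 18.2 FPKM in HT with DMSO and at 11.6 and 7.10 with iEZH (-1.002 log2, limma adjusted p = 0.0978). With genes under 300 bp left out it was called lower (limma adjusted p = 0.0492), close to the threshold. That fit called 5.51% of all genes, with 161 of 11164 lower. H3F3B stood at 92.0 and 67.0 FPKM in SUDHL6 with DMSO and at 107 and 93.3 with iEZH. H2AFJ, with the smallest p of the list in SUDHL6, stood at 4.03 and 3.25 FPKM with DMSO and at 7.49 and 6.75 with iEZH (0.81 log2, adjusted p = 0.118).

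Genes listed for histone transcription and 3′ end processing were mostly lower with iEZH in both lines, by small medians. None was called, beside 0.609% of all genes tested in HT and 0.269% in SUDHL6. Of 27 on the list of histone transcription and 3′ end processing 26 were tested per line, with 20 lower in HT (median -0.10 log2, and -0.13 without DMSO 1) and 21 in SUDHL6 (-0.15). NPAT stood at 29.5 and 28.5 FPKM in HT with DMSO and at 19.3 and 21.3 with iEZH (-0.50 log2, limma adjusted p = 0.102), and in SUDHL6 at 12.02 and 16.6 with DMSO and 10.1 and 10.7 with iEZH (-0.41, adjusted p = 0.313). SLBP stood at 62.2 and 53.2 FPKM in HT with DMSO and at 45.8 and 42.1 with iEZH, and in SUDHL6 at 106 and 94.2 against 84.8 and 74.6. CASP8AP2 stood at 12.5 and 13.3 FPKM in HT with DMSO and at 8.10 and 9.52 with iEZH, and in SUDHL6 at 11.1 and 13.1 against 9.83 and 9.46. For all 3 genes both iEZH libraries lay below both controls in both lines. Over the list this held for 11 of 26 genes in HT and 15 of 26 in SUDHL6. Of all genes tested, 23.4% in HT and 20.6% in SUDHL6 did so. CDK2, a kinase that acts on NPAT, had the smallest p of the list in both lines (-0.63 and -0.53 log2, limma adjusted p = 0.0842 and 0.137). CCNE1, also on the list, was higher in HT, at 7.02 and 6.18 FPKM with DMSO and 9.69 and 8.82 with iEZH. Its differences were 0.43 log2 in HT and -0.37 in SUDHL6 (limma adjusted p = 0.153 and 0.386).

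Histone chaperones, which carry histones to and from DNA, and the acetyltransferase HAT1 were also mostly lower. Of 23 on the list 22 were tested per line and 0 were called, beside 0.609% of all genes tested in HT and 0.269% in SUDHL6. In each line 19 were lower (median -0.32 log2 in HT, -0.28 without DMSO 1, and -0.20 in SUDHL6). HJURP, the chaperone of CENPA, stood at 51.2 and 50.6 FPKM in HT with DMSO and at 32.5 and 35.6 with iEZH (-0.57 log2, limma adjusted p = 0.0779). NASP, a chaperone of H1 and H3, stood at 132 and 117 FPKM in HT with DMSO and at 88.0 and 76.6 with iEZH (-0.59, adjusted p = 0.0995). In SUDHL6 the smallest p-values belonged to MMS22L (-0.53 log2, adjusted p = 0.137) and CHAF1A (-0.73, adjusted p = 0.148).

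All 22 S phase markers, genes of DNA replication that are expressed in S phase, were lower with iEZH in both lines, with medians of -0.58 log2 in HT (-0.51 without DMSO 1) and -0.54 in SUDHL6, beside 0.02 and 0.04 over all genes tested. None was called in the main test. With genes under 300 bp left out, 8 were called lower in HT (CDT1, MCM6, PCNA, PRIM1, RRM1, RRM2, TK1 and TYMS) and 0 in SUDHL6. Those fits called 5.51% and 0.0182% of all genes in either direction. The lower calls over all genes were 161 of 11164 in HT and 0 of 11006 in SUDHL6. PRIM1, a primase subunit, stood at 31.9 and 37.0 FPKM in HT with DMSO and at 15.7 and 16.6 with iEZH (-1.05 log2, limma adjusted p = 0.0524, and 0.0220 without short genes). TK1, thymidine kinase, stood at 121 and 120 FPKM in HT with DMSO and at 66.9 and 54.7 with iEZH (-0.98, adjusted p = 0.0547). CDT1, which licenses replication, stood at 88.0 and 96.4 FPKM in SUDHL6 with DMSO and at 47.4 and 39.3 with iEZH (-1.08, adjusted p = 0.107). E2F1, a transcription factor of the G1 to S transition, stood there at 79.5 and 60.9 FPKM with DMSO and at 36.1 and 30.3 with iEZH (-1.05, adjusted p = 0.119). The markers summed to 2505 and 2270 FPKM in HT with DMSO and to 1712 and 1428 with iEZH, and in SUDHL6 to 2919 and 2492 against 2060 and 1596. In these sums both iEZH libraries were below both controls in both lines.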

How the data were processed

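Per the labels, total RNA was the material of the 8 libraries. The submitters' processing notes name TopHat 1.4.1, Cufflinks and hg19. The library kit, the RNA selection (poly(A) or other), strandedness and annotation are not given in the sources used here. The authors deposited FPKM per gene symbol and library, 1 table per line, kept for genes rated detectable per the file headers, together with a p-value and its FDR and a ratio (fold) of iEZH to DMSO means. Gene-level counts were not analysed here, so no counting interval is given, and 2 libraries per group limit the precision. All columns were matched to labelled samples.

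Histone genes were selected by symbol, and the type was read from it. Log2(FPKM + 1) was tested with limma 3.58.1 (eBayes with trend) in R 4.3.3, per line and as an interaction, two-sided, with Benjamini-Hochberg adjustment over all genes with at least 1 FPKM in 2 of 4 libraries. This filter was set on all 4 libraries of a line, also where a library was then left out. The threshold was an adjusted p of 0.05. Fold changes on this scale understate those of low genes. The fit was tested on simulated data. In HT 1 gene without a numeric value in every library was dropped. Genes that share sequence may share reads: 35 of the 65 hold a 50-base stretch of another. Sequences are from RefSeq (promoters, GRCh38.p14, with those of chromosome 8 left out) and GENCODE v29 (transcripts, GRCh38), not from the hg19 build of the tables.

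The members, the 4 related lists (variants, histone transcription and 3′ end processing, chaperones, S phase), the marker lists and the rule for named genes were chosen with earlier results of these data known. One B cell marker, and the sum over that list, are not reported here. The rule names, per line, the highest control mean of each type, called genes, and up to 3 differences in each direction among genes whose groups do not overlap; for the difference, the 3 smallest p-values; and from each list the called or the 2 smallest-p members, with NPAT, SLBP, CASP8AP2, H2AFZ and H3F3B. The other genes named, the list of RNAs without a poly(A) tail, the sums without leading genes, and leaving out short genes together with a library were chosen after seeing the data. The alternatives were a filter of 5 FPKM or none, a pseudocount of 0.1 or 0.5, median-ratio rescaling, quantile normalization, leaving out genes under 300 bp, both lines in 1 fit, a replicate block, and leaving out each library.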

Additional observations from a re-analysis of the deposited data

Results flagged for a closer look

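HIST4H4, an H4 gene on chromosome 12, had its groups apart in opposite directions in the 2 lines. In HT it stood at 5.14 and 0.851 FPKM with DMSO and at 0.712 and 0.1401 with iEZH, both below both controls (-1.27 log2, and -0.41 without DMSO 1). In SUDHL6 it stood at 0.511 and 1.12 FPKM with DMSO and at 2.27 and 2.41 with iEZH, both above (0.90 log2, limma adjusted p = 0.137). The difference between lines was 2.17 log2, or 1.30 without HT DMSO 1, and was not tested, because in HT the gene reached 1 FPKM in DMSO 1 alone and failed the filter. HIST1H2AI and HIST2H4B were also apart in opposite directions, and their differences were tested and not called (limma adjusted p = 0.487 and 0.494).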

How the results depend on the processing

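Depth is known only as total reads, and 2 libraries per group limit every test; with 1 library left out, the lone library of a group is assumed to vary like the other group. The causes of the changes below were not tested. In HT limma called 69 genes in all, and it called 12 with no filter on low values, 41 with a filter of 5 FPKM, 32 after quantile normalization, 615 without genes under 300 bp and 648 with both lines in 1 fit. In SUDHL6 it called 30, and 2 without short genes and 351 with both lines in 1 fit. For the difference between lines it called 11, and 17 with a pseudocount of 0.1, 18 with no filter and 7 without short genes.

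Leaving out each library gave 35 to 108 called genes in HT, 30 to 49 in SUDHL6 and 4 to 15 for the difference. The called histone genes numbered 0 to 28 in HT, where the 28 came without DMSO 2, 0 in SUDHL6, and 0 to 1 for the difference. The histone median ran from -2.34 to -0.04 log2 in HT and from -0.08 to 0.70 in SUDHL6, and for SUDHL6 it was 0.82 with a filter of 5 FPKM. HIST1H1C in HT ran from -1.22 to 0.83 log2 and was also above 0, at 0.13, without iEZH 2. HIST1H4H ran from -2.82 to 0.52 and HIST2H2AA3 from -1.71 to 0.31, above 0 only without DMSO 1. With short genes left out as well, which was chosen after seeing the data, 30 histone genes were called in HT without DMSO 2, 2 without iEZH 1 and 0 without either other library. In SUDHL6 10 were called without DMSO 1, 3 without DMSO 2, 11 (10 higher, 1 lower) without iEZH 1 and 7 without iEZH 2.

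With a replicate block, limma called 2482 genes in HT (8 histone genes, all lower), 2313 in SUDHL6 (16 histone genes, 15 higher) and 543 for the difference (0 histone genes). That was 23.5% of the tested histone genes against 21.9% of all genes in HT, and 35.6% against 20.7% in SUDHL6. With the replicate block and short genes left out these were 3743 (29 histone genes, all lower), 3780 (23, 21 of them higher) and 1270 (13), or 85.3% of histone genes against 33.5% of all genes in HT, 51.1% against 34.3% in SUDHL6 and 39.4% against 12.3% for the difference. Deviations of same-numbered libraries from their group means correlated at r = 0.618 in HT and 0.729 in SUDHL6 across genes, but the labels give the numbers no meaning and a line has only 2 of each, so the libraries were not treated as pairs.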
